A study of Mus musculus with 8 samples.

Results

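The 9 genes described here serve class I antigen presentation and the response to interferon. They are B2m, H2-K1, H2-D1, Tap1, Tap2 and Tapbp on the presentation side and Irf7, Ifit1 and Ifit3 on the interferon side. The array held 15 probes whose gene symbol was one of these, out of 56605 probes for 26894 symbols. At least 1 probe of each of the 9 genes was well above background, and 13 of the 15 probes entered the tests. All samples were dentate gyrus, taken at 8 to 9 weeks of age from C57BL/6 males, and 4 groups had 2 arrays each. Derlin-1 control mice were Derlin-1 flox/flox and Derlin-2 control mice were Derlin-2 flox/flox, and neither carried Cre. The mice of both KO groups, Derlin-1 KO and Derlin-2 KO, carried the same floxed alleles together with Cre recombinase under control of the nestin promoter. All 4 groups shared the floxed background of their line, and no group without a floxed allele or with Cre alone was analysed here. Nestin-Cre acts in neural precursors and their progeny, namely neurons, astrocytes and oligodendrocytes. Microglia and blood cells do not arise from them. The sources used here do not say whether the 2 arrays of a group came from separate animals, so the p-values measure only the spread between these samples, which may be technical.

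A class I molecule is a heavy chain, such as the product of H2-K1 or H2-D1, bound to beta-2-microglobulin, the product of B2m. Peptides cut by the proteasome are pumped into the endoplasmic reticulum (ER) by the transporter made of Tap1 and Tap2, and tapasin, the product of Tapbp, holds the empty molecule at the transporter until a peptide is bound. Interferons bind receptors that signal through STAT proteins to promoters of the interferon-stimulated genes, among which are the genes of class I presentation. Irf7 is a transcription factor that amplifies type I interferon production, and Ifit1 and Ifit3 are antiviral proteins made in response to interferon. Neurons in the healthy brain make little class I, whereas microglia and endothelium make more. Derlin-1 was first described as a factor for the export of class I heavy chains from the ER in cells that make a cytomegalovirus protein, which is the link between the deleted genes and this pathway.

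No member passed the test in either line. The mean signal of 8 of the 9 genes was lower in Derlin-1 KO than in its controls, with Tapbp as the exception, and that of 8 of 9 was lower in Derlin-2 KO, with Tap2 as the exception. These differences were small and lay within the spread between the control arrays. In each line 1 control array stood above the other 3 arrays for nearly all members, and without those 2 arrays most of the differences vanished or turned. Those arrays were picked from the members' own values. Leaving out the higher control lowers the control mean, so this change follows from the choice and is no test.

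The promoters of the 5 members in which a motif of interferon regulatory factors was found are shown first, since the members and the lists used below are tied by their response to interferon. The sequences are from RefSeq on the GRCm38.p6 assembly, which had an entry for 8 of the 9 members and none for Tap2. Each is given for the 160 bases before the annotated gene start, on the strand of the gene. Capitals mark matches on either strand to 4 motifs. These were the IRF core AANNGAAA, which interferon regulatory factors bind, and its extended form GAAANNGAAA, here called the ISRE core, which always contains an IRF core. The others were the CRE-type core TGACG and the NF-Y box CCAAT. In the order given, the windows are chr19:34640729-34640888 on the plus strand for Ifit1, chr19:34583369-34583528 on the plus strand for Ifit3, chr2:122147527-122147686 on the plus strand for B2m, chr17:34000348-34000507 on the minus strand for H2-K1 and chr17:35262934-35263093 on the plus strand for H2-D1.
Ifit1: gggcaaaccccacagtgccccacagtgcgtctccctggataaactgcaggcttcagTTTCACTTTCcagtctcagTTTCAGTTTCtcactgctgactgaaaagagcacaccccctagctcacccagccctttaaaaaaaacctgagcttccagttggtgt
Ifit3: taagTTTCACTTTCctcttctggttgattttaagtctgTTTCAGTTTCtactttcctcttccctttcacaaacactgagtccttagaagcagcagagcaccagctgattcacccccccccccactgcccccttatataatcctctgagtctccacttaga
B2m: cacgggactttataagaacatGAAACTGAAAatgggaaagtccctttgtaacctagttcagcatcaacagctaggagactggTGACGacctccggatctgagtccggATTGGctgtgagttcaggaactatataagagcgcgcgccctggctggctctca
H2-K1: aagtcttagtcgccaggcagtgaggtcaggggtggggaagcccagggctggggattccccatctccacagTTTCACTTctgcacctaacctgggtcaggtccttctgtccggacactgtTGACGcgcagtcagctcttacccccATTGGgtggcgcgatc
H2-D1: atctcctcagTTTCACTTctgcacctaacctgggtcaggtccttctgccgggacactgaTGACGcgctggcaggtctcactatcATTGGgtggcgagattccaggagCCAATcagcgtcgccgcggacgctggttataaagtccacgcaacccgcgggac

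In the full windows of 300 bases, which run from 250 bases before to 50 bases after the start, the ISRE core was found 2 times in Ifit1, 2 times in Ifit3 and 1 time in B2m. It was found in 3 of the 8 members with a window and in 3.44% of all 32851 windows. The shorter IRF core was in 5 of 8 members, the 3 above with H2-K1 and H2-D1, against 23.9% of all windows. The CRE-type core was in 5 of 8 and in 20.8% of all windows, and the NF-Y box in 6 of 8 and in 37.4%. H2-K1 and H2-D1 shared 166 of 190 bases (87.4%) before their starts when H2-D1 was moved by 60 bases, and the IRF core, the CRE-type core and the first NF-Y box came in the same order in both. Neither IRF core nor ISRE core matched in the windows of Tap1, Tapbp and Irf7, which says only that these letters are not there. Tap1 lies 226 bases from the start of Psmb9 on the opposite strand, so both genes read away from 1 shared stretch.

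**Figure D1:**
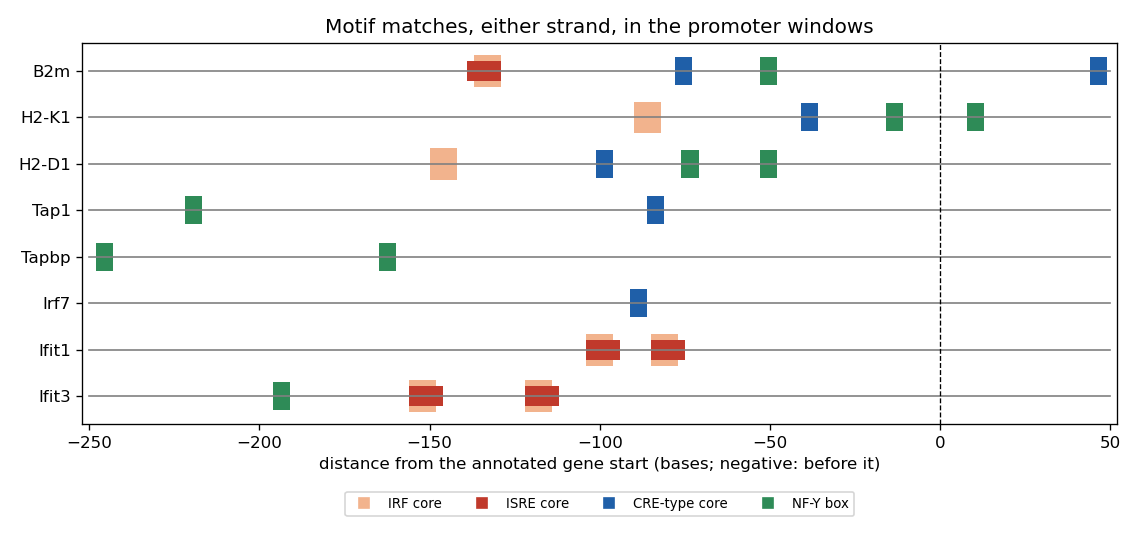
Motif matches on either strand in the promoter windows of the 8 members with an entry; the horizontal axis is the distance in bases from the annotated gene start. ISRE cores lie in the windows of B2m, Ifit1 and Ifit3, and H2-K1 and H2-D1 carry an IRF core followed by a CRE-type core.

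Signals are given as log2 of the background-subtracted brightness after quantile normalization, which gives all 8 arrays the same distribution, and levels of different probes were not compared. The arrays were alike in quality. Between 38247 and 40088 probes (67.6% to 70.8%) were well above background on an array, the 75th percentile of the signal was 956 to 1437, and no spot was saturated (0 on each array). Derlin-1 control 1 had the highest 75th percentile and the fewest probes above background of the 8 arrays. All 10 markers of dentate granule neurons were well above background on all 8 arrays. The brightest Derl2 probe was lower in Derlin-2 KO (10.63 and 10.66) than in its controls (11.35 and 11.22), and the brightest Derl1 probe was lower in Derlin-1 KO (10.57 and 10.66) than in its controls (10.85 and 10.76), neither past the threshold. A second Derl1 probe was higher in Derlin-1 KO (7.94 and 7.71) than in its controls (7.37 and 7.36), and where these probes lie relative to the deleted exons was not tested. Each line was hybridised on its own slide, so slide and line cannot be told apart, whereas KO and control of a line shared a slide.

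Among the class I chains, B2m gave 13.73 and 13.22 in the Derlin-1 controls and 13.25 and 13.22 in Derlin-1 KO. In the other line it gave 13.34 and 13.63 in the controls and 13.33 and 13.08 in Derlin-2 KO. Derlin-1 control 1 stood apart from 3 arrays that lay together, and for Derlin-2 both KO arrays were just below both controls. The KO minus control difference of B2m was -0.25 (SE 0.20) for Derlin-1 and -0.28 (SE 0.20) for Derlin-2. A second B2m probe, for a cDNA clone, differed by -0.21 (SE 0.46) and 0.20 (SE 0.46) and was well above background on only 1 array of each Derlin-2 group.

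H2-K1, a classical heavy chain, gave 12.44 and 11.63 in the Derlin-1 controls and 11.70 and 11.75 in Derlin-1 KO. Its signals were 11.39 and 12.39 in the Derlin-2 controls and 11.65 and 11.33 in Derlin-2 KO. The groups overlapped in both lines, and the 2 controls of a line were farther from each other than either was from the nearer KO array. The differences of H2-K1 were -0.31 (SE 0.39) and -0.40 (SE 0.39), and those of its second probe were -0.36 (SE 0.34) and -0.21 (SE 0.34).

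H2-D1, the other classical heavy chain, gave 11.15 and 10.36 in the Derlin-1 controls and 10.33 and 10.54 in Derlin-1 KO. For Derlin-2 it gave 10.16 and 10.83 in the controls and 10.20 and 10.11 in the KO. Again 1 control of each line was high and the other lay among the KO arrays. Its differences were -0.32 (SE 0.32) and -0.34 (SE 0.32). Heavy chain genes are alike in sequence, and whether a probe of one also reads another was not tested.

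Tap1, a subunit of the peptide transporter, gave 8.01 and 7.48 in the Derlin-1 controls and 7.53 and 7.82 in Derlin-1 KO. It gave 7.03 and 7.36 in the Derlin-2 controls and 7.07 and 7.05 in Derlin-2 KO. Control and KO overlapped in both lines, with differences of -0.06 (SE 0.22) and -0.14 (SE 0.22). With the arrays scaled to the 75th percentile instead, the Derlin-1 difference of Tap1 was 0.026, and from the authors' log2 values 0.0060. A dimmer Tap1 probe gave 5.28 and 4.63 in the Derlin-1 controls and 4.24 and 4.19 in Derlin-1 KO, too dim there to count as well above background. Its Derlin-1 difference was -0.74 (SE 0.26). This probe entered the tests only because it was above background in the Derlin-1 controls. That filter favours a lower value in the KO, so the difference is not read as a result. On the Derlin-2 arrays this probe was also too dim, and both Tap1 probes lie in the last eighth of the array's rows.

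The other subunit, Tap2, gave 10.56 and 10.33 in the Derlin-1 controls and 10.35 and 10.31 in Derlin-1 KO. Its signals were 10.15 and 10.61 in the Derlin-2 controls and 10.40 and 10.39 in Derlin-2 KO. Both Derlin-2 KO arrays thus lay between the controls, and the differences were -0.12 (SE 0.17) and 0.01 (SE 0.17). A second Tap2 probe was above background on 1 array of each KO group only and was left out of the tests.

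Tapbp, which encodes tapasin, gave 10.63 and 10.81 in the Derlin-1 controls and 10.77 and 10.84 in Derlin-1 KO. It gave 10.50 and 10.90 in the Derlin-2 controls and 10.61 and 10.47 in Derlin-2 KO. Tapbp was the only member that Derlin-1 control 1 did not lead, being the lowest there among the 4 arrays of the line. Its differences were 0.08 (SE 0.16) and -0.16 (SE 0.16). Its second probe differed by -0.12 (SE 0.17) and 0.05 (SE 0.17), with signs opposite to the first in both lines.

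Of the interferon response genes, Irf7 gave 9.87 and 8.62 in the Derlin-1 controls and 8.91 and 8.76 in Derlin-1 KO. It gave 8.89 and 9.25 in the Derlin-2 controls and 9.02 and 8.79 in Derlin-2 KO. The signal of Irf7 on Derlin-1 control 1 was 1.11 above the mean of the other 3 arrays of its line, the largest such gap among the members there, whereas both KO arrays lay between the 2 controls. The differences were -0.41 (SE 0.39) and -0.16 (SE 0.39). A dimmer Irf7 probe, which was well above background on at most 1 array of a group, was not tested.

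Ifit1 gave 6.79 and 5.94 in the Derlin-1 controls and 6.17 and 5.97 in Derlin-1 KO. It gave 5.91 and 7.03 in the Derlin-2 controls and 5.86 and 6.01 in Derlin-2 KO. Derlin-2 control 2 stood far above the other 3 arrays of its line, which lay together, and the groups overlapped in both lines. The differences were -0.29 (SE 0.42) and -0.53 (SE 0.42), the latter being the largest among the members in that line.

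Ifit3, a partner of Ifit1 in the same antiviral complex, gave 9.35 and 8.87 in the Derlin-1 controls and 8.89 and 8.81 in Derlin-1 KO. Its signals were 8.42 and 9.30 in the Derlin-2 controls and 8.63 and 8.65 in Derlin-2 KO. The 2 KO arrays of each line lay close together, near the lower control for Derlin-1 and between the controls for Derlin-2. Ifit3 differed by -0.26 (SE 0.30) and -0.22 (SE 0.30). Its close copy Ifit3b has a probe of its own on the array, and whether the Ifit3 probe also reads Ifit3b was not tested.

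**Figure D2:**
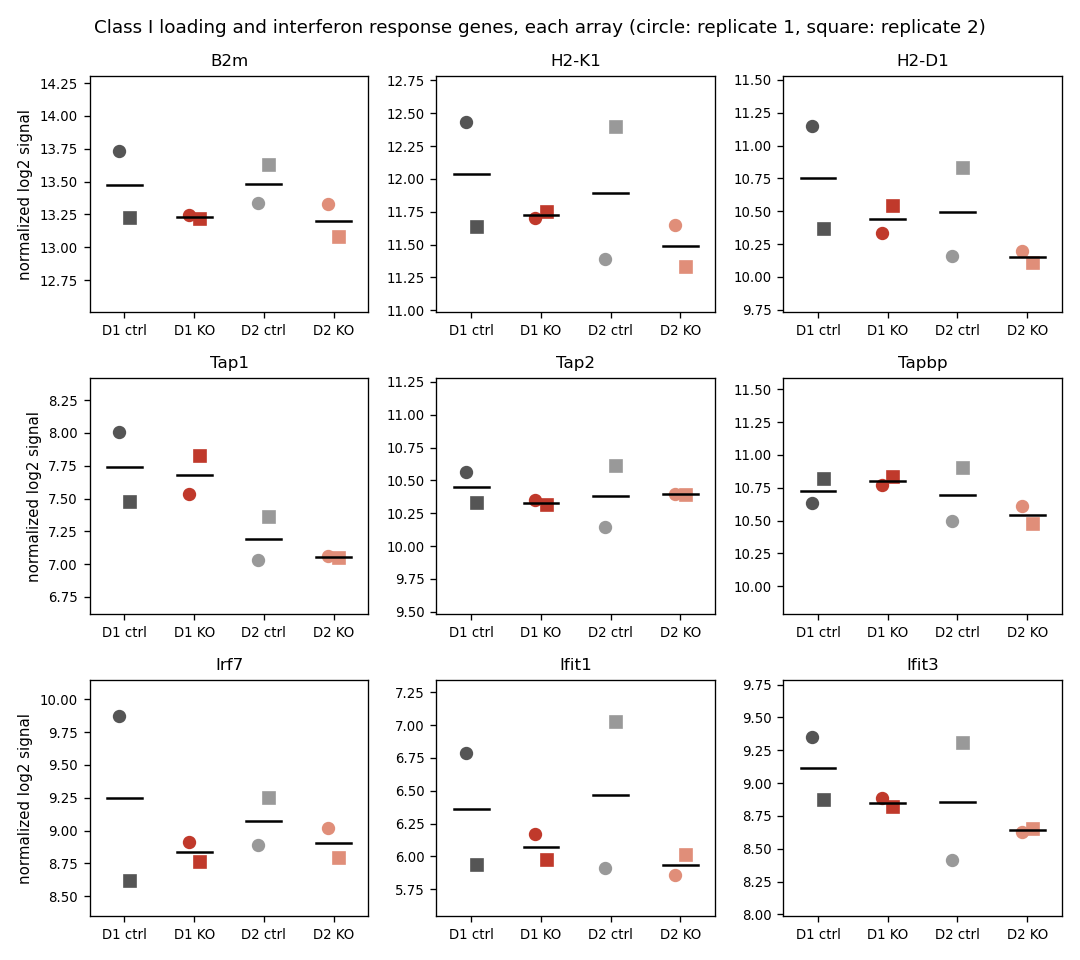
Normalized log2 signal of the brightest probe of each of the 9 genes on each of the 8 arrays, with Derlin-1 written D1 and Derlin-2 written D2; horizontal lines are means of 2 arrays. The circle of the D1 controls and the square of the D2 controls are the highest of their line in every panel except the D1 line of Tapbp.

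In limma, 0 of the 9 genes passed an adjusted p of 0.05 for Derlin-1, where 0% of all 39981 probes did. There 0 of 9 had an unadjusted p under 0.05 by the brightest probe, against 4.72% of all probes, and the smallest unadjusted p was 0.27 for B2m. For Derlin-2 KO against control, 0 of 9 passed, with 0.0452% of 39812 probes passing, and 0 of 9 had an unadjusted p under 0.05, against 5.55%. The lowest limma adjusted p of a member was 0.9997 in the former line and 0.9966 in the latter. The 95% intervals were wide. That of B2m ran from -0.74 to 0.25 for Derlin-1 and from -0.77 to 0.21 for Derlin-2, and that of Ifit1 from -1.31 to 0.73 and from -1.55 to 0.49. With 2 arrays a group, these intervals leave both lower and higher levels in the KO possible.

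The median difference over the members was -0.26 for Derlin-1, beside -0.01 over all genes, and -0.22 for Derlin-2, beside 0.02 over all genes. Averaged over both lines, KO was lower for 9 of 9 members, with a median of -0.26 beside 0.01 over all genes and a range of -0.41 for Ifit1 to -0.04 for Tapbp. None of these 9 mean effects passed (limma adjusted p of 1 for each, where 0.0126% of all probes passed), and 0 had an unadjusted p under 0.05 against 4.39% of all probes. B2m had the lowest unadjusted p of the mean effect, 0.116, with a mean effect of -0.26 and a 95% interval of -0.61 to 0.09.

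Control and KO arrays overlapped for nearly all members. For Derlin-1, 0 of 9 had both KO arrays above both controls (17.2% of all genes did) and 0 of 9 had both below (16.9%). For Derlin-2 0 of 9 had both KO arrays above both controls (19.2%), and 1 of 9, B2m, had both below (13.6%). The effect of the Derlin-1 deletion minus that of the Derlin-2 deletion ranged from -0.25 for Irf7 to 0.24 for Ifit1. For 0 of 9 did this difference between the lines pass (lowest limma adjusted p 0.944), where 0.00754% of all probes did. Its 95% interval was -0.66 to 0.73 for B2m and -1.60 to 1.11 for Irf7, so the deletions are not shown to act alike or differently on these genes.

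The members varied more between controls than between KO arrays. The gap between the 2 controls of a line exceeded that between the 2 KO arrays for 9 of 9 members in each line, and for 65.2% of all genes for Derlin-1 and 66.8% for Derlin-2. The median gap of the members was 0.53 between the Derlin-1 controls and 0.07 between the Derlin-1 KO arrays. Between the Derlin-2 controls it was 0.47, and between the Derlin-2 KO arrays 0.14. The control arrays behind these gaps were the same for almost every member. Derlin-1 control 1 was the highest array of its line for 8 of 9 members, compared with 37.2% of all genes, and Derlin-2 control 2 for 9 of 9, compared with 31.2%. Both at once held for 8 of 9 members (88.9%), for 41 of 72 other interferon-stimulated genes (56.9%) and for 1632 of all 19667 genes (8.30%). These shares describe the arrays, and no test was made of them, because which arrays to look at was decided from the members' values.

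With those 2 arrays left out, a choice made after seeing the data, the median difference of the members was 0.077 for Derlin-1, 0.028 for Derlin-2 and 0.096 for the mean of both. KO was then higher than the remaining control for 6 of 9 members for Derlin-1 and 7 of 9 for Derlin-2. The Derlin-1 differences ranged from -0.02 for Ifit3 to 0.22 for Irf7, and the Derlin-2 differences from -0.13 for B2m to 0.25 for Tap2. No member passed in that fit either. Leaving out the higher control lowers the control mean, so a shift in this direction was set by the choice for nearly all members. Each line then rests on a lone control array, which is assumed to vary like the other groups. Without the opposite array, Derlin-1 control 2, the Derlin-1 median of the members was -0.50, and without Derlin-2 control 1 the Derlin-2 median was -0.43.

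**Figure D3:**
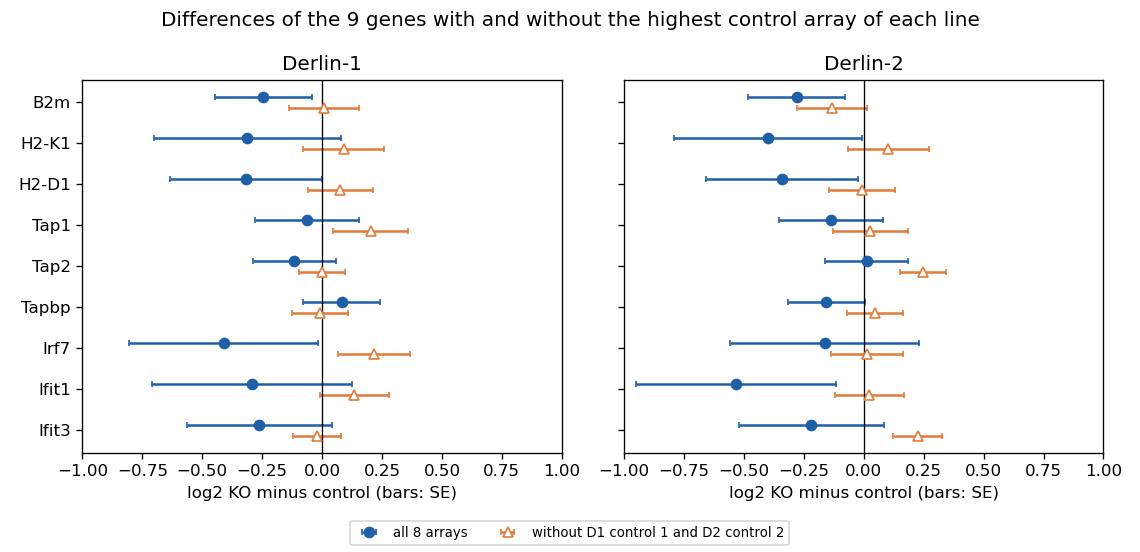
KO minus control differences in log2 signal of the 9 genes in each line, with standard errors from limma as bars, from all 8 arrays (circles) and without Derlin-1 control 1 and Derlin-2 control 2 (triangles). The circles lie left of 0 for 8 of 9 genes in each line, and the triangles right of 0 for 6 and 7 of 9.

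Other genes of the pathway were taken from lists, and none of their members passed the test in either line. Of 21 other class I heavy chains, 16 were lower and 5 higher in Derlin-1 KO, with a median difference of -0.21, and 14 were lower and 7 higher in Derlin-2 KO, with a median of -0.14. For Derlin-1, 4 of the 21 had both KO arrays below both controls (16.9% of all genes did) and 3 had both above (17.2%). For Derlin-2, 4 had both below (13.6%) and 2 had both above (19.2%). H2-M5, a non-classical heavy chain, gave 5.23 and 4.58 in the Derlin-1 controls and 6.07 and 5.87 in Derlin-1 KO, a difference of 1.06 (SE 0.23). It stood against the direction of its list in that line. H2-Q5 and H2-T9 were below both controls on both Derlin-1 KO arrays, with differences of -0.57 (SE 0.27) and -0.43 (SE 0.19). On the Derlin-2 KO arrays H2-Q10, Mr1 and H2-M2 were below both controls, by -0.43 (SE 0.32), -0.38 (SE 0.13) and -0.32 (SE 0.18). Mr1 presents bacterial metabolites to T cells rather than peptides.

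Genes of peptide supply and chaperoning had median differences near 0. Over 13 such genes, the median was 0.00 for Derlin-1, with 7 higher and 6 lower, and -0.01 for Derlin-2, with 6 higher and 7 lower. For Derlin-1 the median covers genes that went both ways. Of the 13, 5 had both KO arrays above both controls (17.2% of all genes did) and 3 had both below (16.9%). For Derlin-2, 2 had both above (19.2%) and 1 had both below (13.6%). Calreticulin (Calr), a lectin chaperone of the ER that joins tapasin in the loading complex, gave 12.95 and 13.18 in the Derlin-1 controls and 13.59 and 13.75 in Derlin-1 KO. Both KO arrays of Calr lay above both controls, a difference of 0.61 (SE 0.13), whereas its Derlin-2 difference was 0.08 (SE 0.13). Calnexin (Canx), which assists the folding of new heavy chains, gave 14.22 on both Derlin-1 controls and 14.59 on both KO arrays. Its difference was 0.37 (SE 0.09) in that line and 0.13 (SE 0.09) for Derlin-2, and its probe lies in the last eighth of the rows. Neither Calr nor Canx passed after adjustment for Derlin-1 (limma adjusted p of 0.9997 for both, unadjusted p of 0.00356 and 0.00587). Both are general folding chaperones. Psmb9 is an immunoproteasome subunit that shares its promoter stretch with Tap1. It gave 8.15 and 7.88 in the Derlin-1 controls and 7.60 and 7.78 in Derlin-1 KO, a difference of -0.33 (SE 0.26). The Derlin-2 difference of Psmb9 was -0.43 (SE 0.26), with control and KO overlapping. For Derlin-2 Uggt1, a sensor of glycoprotein folding, differed by 0.11 (SE 0.10) and the proteasome activator subunit Psme1 by -0.08 (SE 0.10).

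Class II genes, which present peptides to helper T cells, differed by a median of -0.28 over 8 genes for Derlin-1 (7 lower, 1 higher) and of 0.08 for Derlin-2 (4 lower, 4 higher). For Derlin-1, 4 of the 8 had both KO arrays below both controls (16.9% of all genes did) and 0 had both above (17.2%). For Derlin-2, 0 had both below (13.6%) and 1 had both above (19.2%). H2-Ob, Cd74 and H2-DMa were lower on both Derlin-1 KO arrays, by -0.48 (SE 0.24), -0.39 (SE 0.21) and -0.35 (SE 0.17). Cd74 encodes the invariant chain of class II. H2-Ab1, a class II chain, was higher on both Derlin-2 KO arrays, by 0.50 (SE 0.34).

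Medians near 0 were also seen upstream in the interferon response. Over 29 interferons, receptors and signalling genes, the median was -0.07 for Derlin-1 (21 lower, 8 higher) and 0.02 for Derlin-2 (14 lower, 15 higher). For Derlin-1, 11 of the 29 had both KO arrays below both controls (16.9% of all genes did) and 2 had both above (17.2%). For Derlin-2, 4 had both below (13.6%) and 9 had both above (19.2%). Tlr7, an endosomal sensor of RNA, gave 10.36 and 10.60 in the Derlin-1 controls and 9.65 and 9.92 in Derlin-1 KO, a difference of -0.70 (SE 0.19). The interferon gene Ifna2 differed by -0.54 (SE 0.15) in the same line and the receptor chain Ifnar1 by 0.43 (SE 0.17). For Derlin-2, the differences were 0.38 (SE 0.09) for Socs1, an inhibitor of the pathway, 0.37 (SE 0.28) for the kinase Tyk2 and -0.31 (SE 0.10) for the receptor chain Ifnar2. None of these 6 passed after adjustment.

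Downstream, most genes had lower means in the KO groups. Of 72 other interferon-stimulated genes, 47 were lower and 25 higher in Derlin-1 KO, with a median of -0.13, and 55 were lower and 17 higher in Derlin-2 KO, with a median of -0.14. Most of them overlapped between KO and control. For Derlin-1, 15 of the 72 had both KO arrays below both controls (16.9% of all genes did) and 6 had both above (17.2%). For Derlin-2, 13 had both below (13.6%) and 3 had both above (19.2%). Gbp4, a guanylate-binding protein, gave 7.32 and 7.04 in the Derlin-1 controls and 6.63 and 6.56 in Derlin-1 KO, a difference of -0.59 (SE 0.42). For Derlin-2 its difference was -0.78 (SE 0.42), with control and KO overlapping. Lgals9, which encodes galectin-9, had both KO arrays below both controls in each line, with differences of -0.48 (SE 0.19) and -0.43 (SE 0.19). Xaf1, a promoter of cell death, differed by -0.45 (SE 0.31) for Derlin-1. For Derlin-2 Eif2ak2, the kinase PKR that senses double-stranded RNA, gave 7.76 and 8.49 in the controls and 7.19 and 7.39 in the KO, a difference of -0.83 (SE 0.23). Oas2, which also responds to double-stranded RNA, differed by -0.76 (SE 0.55) for Derlin-2. Its Derlin-1 difference was 0.77 (SE 0.55), with control and KO overlapping. Ly6a, a surface protein of endothelium and a list member shared with the endothelial markers, differed by -0.63 (SE 0.25) for Derlin-2. Without the 2 high controls the medians of the 72 genes were 0.01 for Derlin-1 and 0.03 for Derlin-2. The 72 genes include 6 that another list also holds.

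The samples are whole tissue, in which fewer cells of a type and less RNA per cell cannot be told apart. Values of marker genes were therefore set beside the members as a mean log2 signal minus the mean of the line's 4 arrays. On this scale the 9 members stood at 0.40 on Derlin-1 control 1 and 0.43 on Derlin-2 control 2, and between -0.18 and -0.07 on the other 6 arrays. The 18 microglial markers stood at 0.09 and -0.10 on those 2 arrays, the 14 endothelial markers at 0.04 and -0.01, and the 10 astrocytic markers at -0.03 and 0.00. All markers of these 3 lists were well above background on all 8 arrays. The 10 oligodendrocyte markers stood at -0.16 and -0.13. The 10 markers of dentate granule neurons stood at 0.19 on Derlin-1 control 1 and 0.05 on Derlin-2 control 2, and at -0.21 on Derlin-1 KO 2. Their part in the members' signals was not tested. Between KO and control, 15 of the 18 microglial markers were lower in Derlin-1 KO, as were 8 of the 9 members, with a median difference of -0.10, and 7 of them had both KO arrays below both controls (16.9% of all genes did). In the other line 13 of 18 were higher in Derlin-2 KO, with a median of 0.11, where 8 of 9 members were lower.

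Markers of perivascular macrophages and of the choroid plexus did not keep 1 direction on the 2 arrays. The 8 macrophage markers, of which 6 were well above background on every array, stood at -0.13 on Derlin-1 control 1 and at 0.47 on Derlin-2 control 2. The 11 choroid plexus markers stood at -0.38 and 0.20. The 11 leukocyte markers measured on every array stood at 0.04 and -0.03, and 8 of 14 tested leukocyte markers were well above background throughout. The same 11 stood at 0.24 on Derlin-1 control 2 and at -0.21 and -0.07 on the Derlin-1 KO arrays. Of the 14 leukocyte markers tested for Derlin-1, 11 were lower in the KO, with a median difference of -0.33. Both KO arrays lay below both controls for 6 of the 14 (16.9% of all genes did) and above both for 2 (17.2%). Among the lower ones, S100a8 and Nkg7 were well above background on 0 of the Derlin-1 KO arrays. Their differences thus rest on signals near the floor. Single markers varied widely within a group, with Cd3e at 8.67 and 11.74 and Cd3d at 4.88 and 7.93 on the 2 Derlin-1 controls. Of 12 tested for Derlin-2, 6 were lower and 6 higher, with a median of 0.04. In mean level the macrophage markers ranged from 6.42 to 6.61 in the Derlin-1 controls and 6.55 to 6.62 in the KO, and from 5.34 to 5.92 in the Derlin-2 controls and 5.25 to 5.28 in the KO. The part of microglia, leukocytes and macrophages in the members' signals was not tested.

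**Figure D4:**
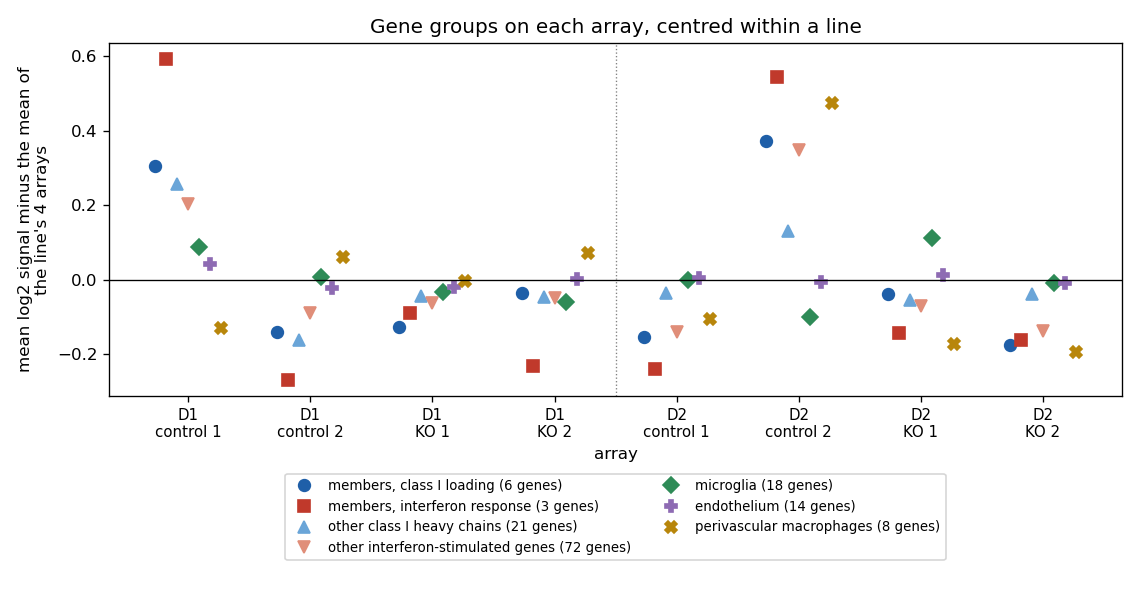
Mean log2 signal of each gene group on each array, less the mean of the 4 arrays of the line; the dotted line parts the lines, and D1 and D2 stand for Derlin-1 and Derlin-2. The members and the other interferon-stimulated genes are highest on D1 control 1 and D2 control 2, where microglial and endothelial markers lie between -0.10 and 0.09.

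The 3 interferon response members and the 6 class I loading members moved together over the 8 arrays, and their centred means correlated with r = 0.954 (Pearson) and rho = 0.667 (Spearman). All points share the normalization, and the r rests largely on the same 2 control arrays, so it is a description. By member, r with the mean of the other 8 ranged from 0.986 for H2-K1 and 0.975 for H2-D1 to 0.330 for Tapbp. The genes whose centred signal was most like that of the loading members, out of 18047 above background on all arrays, were Tgtp2 (r 0.995), H2-K2 (0.995), Phf11d (0.993), Irgm2 (0.991) and Irgm1 (0.989). Those most like the interferon response members were Ppp1r37 (0.987), Gbp3 (0.987), H2-Bl (0.984), Ifi44 (0.982) and Fam204a (0.982). Of these 10 genes, Tgtp2, Phf11d, Irgm1, Irgm2, Gbp3 and Ifi44 belonged to the list of other interferon-stimulated genes, and H2-Bl to the list of other heavy chains. Tgtp2, an interferon-inducible GTPase, gave 9.41 and 8.07 in the Derlin-1 controls, 8.01 and 8.32 in Derlin-1 KO, 7.94 and 9.86 in the Derlin-2 controls and 8.25 and 7.83 in Derlin-2 KO.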

How the data were processed

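Dentate gyrus RNA was hybridised to 8 Agilent 1-colour arrays. Per the file headers, the deposited scanner output gives spot intensity after background subtraction and detrending in Agilent Feature Extraction 10.7.1.1. The authors also deposited log2 values, quantile-normalized and shifted by probe medians, whose columns name a group but no replicate, together with their own fold changes and ratios, which were not used. Samples were grouped by title, since the KO genotype labels name only the floxed allele. Gene symbols are those of the deposited tables, and the Entrez ID of all 9 members carried the same symbol in RefSeq. Control spots were left out, signals under 1 were set to 1 before log2 and quantile normalization, spots with an outlier flag were dropped, and spots of a probe were averaged. Probes well above background on both arrays of at least 1 group were kept (40001). A gene is given by its brightest probe, and errors of differences are those of limma.

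Limma 3.58.1 in R 4.3.3 fitted 4 group means to the 8 arrays (4 residual and 2.07 prior degrees of freedom), with two-sided tests and Benjamini-Hochberg adjustment over all probes at 0.05. An exact test of 2 against 2 arrays cannot give a p below 0.333. The number of arrays limits the precision. The members and lists were chosen with earlier results of these data known. Beside the members, the text names, per list and line, up to 3 genes with the largest difference among those above background on all 4 arrays and without overlap, and the 5 genes most like the loading and the interferon members. The script was tested on simulated data for the Derlin-1 comparison. It called 42% of 100 probes changed by 1 in log2 and 74% of 100 probes changed by 2, and 7 unchanged probes. Many real changes would thus not pass, and smaller changes were not simulated.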

Additional observations from a re-analysis of the deposited data

Results flagged for a closer look

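The KO effect of 2 genes from the lists went in opposite directions in the 2 lines, with no overlap of KO and control arrays in either. For H2-M5, a non-classical heavy chain, both KO arrays lay above both controls in the Derlin-1 line and below them in the Derlin-2 line (4.14 and 4.39 against 4.47 and 4.40), and the Derlin-1 effect exceeded the Derlin-2 effect by 1.23 (SE 0.32). Its probe was well above background on 1 of the 2 Derlin-2 KO arrays. For Socs1, an inhibitor of interferon signalling, the signals were 6.99 and 6.92 in the Derlin-1 controls, 6.90 and 6.87 in Derlin-1 KO, 6.81 and 6.78 in the Derlin-2 controls and 7.20 and 7.15 in Derlin-2 KO, and the Derlin-1 effect minus the Derlin-2 effect was -0.45 (SE 0.13). The difference between the lines did not pass in limma, with an adjusted p of 0.698 for H2-M5 and 0.745 for Socs1, and line and slide cannot be told apart.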

How the results depend on the processing

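The limits come first. With 2 arrays a group, the direction of the members' differences depended on 1 control array of each line. The count of members passing was 0 in each comparison under every alternative run, and the medians of the members kept their sign under the alternatives that left out no array of the line. Without Derlin-1 control 1 and Derlin-2 control 2 together, which was chosen after seeing the data, the median was 0.077 for Derlin-1 and 0.096 for the mean of both lines. In that fit the Derlin-1 differences that changed sign were 0.0075 for B2m, 0.077 for H2-D1, 0.089 for H2-K1, 0.13 for Ifit1, 0.22 for Irf7, 0.20 for Tap1 and -0.0092 for Tapbp. For Derlin-2 they were 0.10 for H2-K1, 0.024 for Ifit1, 0.22 for Ifit3, 0.015 for Irf7, 0.028 for Tap1 and 0.046 for Tapbp, and for the mean of both lines 0.035 for H2-D1, 0.096 for H2-K1, 0.079 for Ifit1, 0.10 for Ifit3, 0.12 for Irf7, 0.12 for Tap1, 0.12 for Tap2 and 0.018 for Tapbp. The change comes with the lower control mean that this leaves. Among the other settings, the Derlin-1 difference of Tap1 was 0.026 when arrays were scaled to the 75th percentile and 0.0060 when the authors' log2 values were used, the Derlin-2 difference of Tap2 was -0.0087 after normexp (run on the median signals, since the files hold no mean signal), and the Derlin-1 difference of Tapbp was -0.018 as the mean over its probes.

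With each array left out in turn, the members' median for Derlin-1 ran from -0.50 to 0.077. Single members ran, for Derlin-1, from -0.50 to 0.0075 for B2m, -0.71 to 0.077 for H2-D1, -0.71 to 0.089 for H2-K1, -0.72 to 0.13 for Ifit1, -1.04 to 0.22 for Irf7, -0.33 to 0.20 for Tap1 and -0.0092 to 0.17 for Tapbp. For Derlin-2 they ran from -0.90 to 0.10 for H2-K1, -1.09 to 0.024 for Ifit1, -0.66 to 0.22 for Ifit3, -0.34 to 0.015 for Irf7, -0.30 to 0.028 for Tap1, -0.22 to 0.25 for Tap2 and -0.36 to 0.046 for Tapbp. For the mean of both lines the ranges were -0.60 to 0.027 for Irf7, -0.23 to 0.033 for Tap1, -0.17 to 0.065 for Tap2 and -0.14 to 0.064 for Tapbp.

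Counts of probes called over the whole array moved more. For the Derlin-2 line, 18 probes were called, against 2 with normexp, 29 with no filter on dim probes, 0 with the 4 arrays of the line alone, 3 with a trended robust prior, 4 without the last eighth of the rows, and 4 to 54 with 1 array left out. For the difference between the lines, 3 probes were called, against 5 after scaling by the 75th percentile, 0 with normexp, 0 with no filter, 0 with the trended robust prior, 0 without the last eighth of the rows, 8 without the 2 high controls, and 0 to 20 with 1 array left out. For the mean of both lines, 5 were called, against 0 with normexp, 2 with the deposited values, 0 with the trended robust prior, 0 without the last eighth of the rows, and 0 to 25 with 1 array left out. For Derlin-1 0 were called, and 0 to 1 with 1 array left out. The cause was not tested. Whether the replicate numbers pair the samples cannot be told from 2 pairs a line. Deviations of same-numbered arrays correlated at 0.268 for Derlin-1 and -0.098 for Derlin-2. With the replicate block, 0 probes were called for Derlin-2, 0 for the line difference and 0 for the mean of both, and no member's call changed. Tap1 has no value without the last eighth of the rows, and the mean over probes gives no probe count.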
